A study of Mus musculus with 12 samples.

Results

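Mouse liver that had stayed 18 h in the cold (4 °C) after death was compared with liver that had stayed 3 h at room temperature. The compared levels come from 4 of the 12 arrays of the study. These are a fresh-frozen (FF) and a formalin-fixed paraffin-embedded (FFPE) liver array at each of the 3 h and 18 h conditions. All mice were male BALB/c animals aged 10 weeks, with no genotype or drug treatment given in the labels. FF pieces went into RNAlater before freezing, whereas FFPE pieces were fixed in 10% formalin for 24 h, kept as blocks for 7 d and cut at 10 µm. The kits that labelled the RNA differed too, with a 3' in vitro transcription kit for FF and a whole-transcript amplification kit for FFPE, so preservation and kit cannot be told apart. The other 8 arrays are liver taken at once after death (0 h) and brain at the same 3 times, and they help set the spread in the fit. The question that this pair of conditions answers is how a short warm interval differs from a longer cold one, the latter being the study's stand-in for a human autopsy. Time and temperature changed together and cannot be told apart. Each condition had 1 array, and the labels do not say how many animals there were or whether FF and FFPE pieces came from the same animal. With no repeat arrays, the only spread in the fit is how far FF and FFPE disagree in their changes over time. It is taken over liver and brain together. The p-values and standard errors below therefore measure that disagreement, not the spread between animals or between repeat arrays of a condition.

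Of 45141 probe sets, 104 manufacturer controls were set aside and 45037 were used. For the test on genes, each gene was read by its brightest probe set, which gave 13073 genes bright enough to test. Values are log2 intensities, so a difference of 1 is a 2-fold difference. Each difference is 18 h minus 3 h in liver, fitted with limma over FF and FFPE together and given with its standard error (SE, 2 arrays at each time). Below, warm stands for 3 h at room temperature and cold for 18 h at 4 °C, so that the cold FF array, for example, is the FF liver array of 18 h. Where 2 levels follow each other without a time, the first is warm and the second cold; where 3 do, they are 0 h, warm and cold. A gene is said to have risen or fallen where its Benjamini-Hochberg adjusted p was under 0.05 and FF and FFPE moved the same way.

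As background, a liver without blood flow has no new supply of oxygen or glucose, and the level of a transcript then depends on how far its gene is still copied and how fast the RNA is broken down. Cooling slows both processes, and transcripts differ widely in how long they last. Liver is made mostly of hepatocytes, which make plasma proteins, bile acids and detoxifying enzymes, with Kupffer cells, sinusoidal endothelial cells, stellate cells and bile duct cells between them.

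On the array-wide measures the warm and cold arrays of a preservation lay close together, while FF and FFPE differed. Their median log2 levels were 4.65 (warm) and 4.67 (cold) for FF, and 4.80 and 4.85 for FFPE. The distance in level from 3' to 5' probe sets of control genes, which tends to widen when RNA is broken, differed more between preservations than between warm and cold. For Gapdh, a glycolytic enzyme gene, it was 0.03, 0.82 and 1.14 at 0 h, warm and cold in FF, and for FFPE it was 1.04, 1.63 and 1.77. For Actb, the cytoplasmic actin gene, it was 1.09, 2.0 and 1.9 in FF but -0.12, -0.01 and -0.18 for FFPE. From warm to cold the Gapdh gap thus rose by 0.32 and 0.14, and that of Actb moved by -0.10 and -0.17. The hepatocyte genes that define the tissue were bright in every liver array, with Alb, the albumin gene, at 12.90 to 13.12 in the 4 arrays.

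At 18 h cold, 991 genes were lower and 361 higher than at 3 h warm. These are 7.58% and 2.76% of the 13073 genes tested, and 10.3% together (1352 genes). The median difference over all genes tested was -0.03, and the median size of a called difference was 0.72, with 0.445 the smallest. A 2-fold size was reached by 200 called genes, 150 of them lower and 50 higher. An unadjusted p under 0.05 was reached by 3217. The split depended on the scaling: after quantile normalization of the 12 arrays 390 genes were higher and 628 lower, so that increases made up 38.3% of the calls in place of 26.7%. Centring each array on its median gave 293 higher and 1134 lower. The count also depended on single arrays. It was 304 (121 higher, 183 lower) without the warm FFPE array and 367 (73 higher, 294 lower) without the warm FF array. The 6 liver arrays fitted without brain gave 417 genes (105 higher, 312 lower), and the 4 arrays of the comparison alone, with 1 degree of freedom left, gave 1, namely Saa2.

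FF and FFPE weighted the 2 directions differently. In the FF pair, 188 genes were at least 2-fold higher and 172 at least 2-fold lower, together 2.75% of genes. In the FFPE pair there were 46 and 388, together 3.32%, and this excess of decreases was smaller after quantile normalization, with 108 and 325. Increases common to both pairs numbered 17 and decreases 52, together 0.528% of genes. The shared increases are 9.04% of those in FF and 37% of those in FFPE, and the shared decreases 30.2% and 13.4%. Among the 361 genes called higher, 265 moved further in FF (median 0.84 in FF and 0.58 in FFPE). Among the 991 called lower, 353 moved further in FF (median -0.64 in FF and -0.79 in FFPE). Across all genes, which are not independent replicates, the FF and FFPE differences had a Pearson r of 0.481. Of all genes, 60.8% had the same sign in both pairs.

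**Figure D1:**
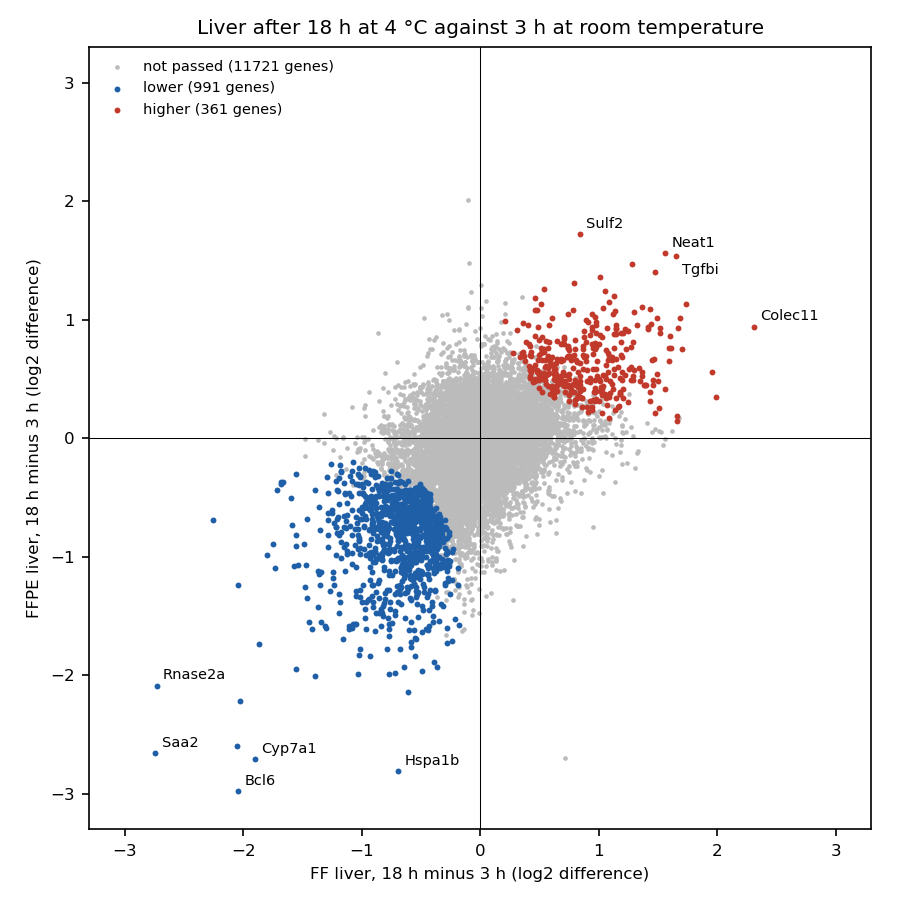
Log2 difference of each of 13073 genes between 18 h at 4 °C and 3 h at room temperature in FF liver (x axis) and in FFPE liver (y axis). Each point is a gene; blue marks the 991 called lower and red the 361 called higher, and the cloud of lower genes reaches further down in FFPE while the higher genes reach further right in FF.

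The time that stands apart from the rest can be read against liver taken at 0 h. The 0 h levels do not enter the 18 h minus 3 h difference, although the 0 h arrays help set its SE. Of the 991 lower genes, 952 (96.1%) had their lowest level at 18 h in both FF and FFPE, against 24.3% of all genes tested, and 279 (28.2%) had their highest level at 3 h in both, against 11.6%. Of the 361 higher genes, 325 (90.0%) were highest at 18 h in both, against 15.8%, and 204 (56.5%) were lowest at 3 h in both, against 9.33%. The calls already require 18 h to lie on the same side of 3 h in both preservations, so a gene called lower cannot be highest at 18 h. Much of these shares is therefore set by the calls, and the shares of all genes are not a like baseline. They are given as a description only.

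The largest decrease was in an acute phase gene, and its close relative was among the 15 largest. Saa2, which encodes a serum amyloid A protein carried on lipoproteins, went from 8.40 warm to 5.66 cold in FF and from 9.25 to 6.59 in FFPE. It fell by 2.70 ± 0.13 (limma, adjusted p = 9.2e-07), a 6.50-fold difference, and its 0 h levels of 8.22 and 9.05 lay near the 3 h ones. Saa1, its neighbour in the family, read 8.34 and 6.29 in FF and 7.52 and 4.92 in FFPE. It fell by 2.33 ± 0.16 (adjusted p = 2.0e-05). In both genes both cold arrays lay below both warm ones, whatever the preservation. Saa1 and Saa2 are close paralogs and probe sets may read both. On the acute phase list of 18 tested genes the other falls were smaller, in Crp, the C-reactive protein gene (-0.81 ± 0.16, adjusted p = 0.00832), and in Orm2, an orosomucoid gene (-0.71 ± 0.19, adjusted p = 0.0355). None of the 18 rose and 4 fell (22.2% called, against 10.3% of all genes), and the list median was -0.23. The count of 4 became 2 without either warm array.

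Genes of bile acid handling were also among the largest decreases. Cyp7a1, the rate-limiting enzyme of bile acid synthesis, went from 9.14 warm to 7.24 cold in FF and from 8.27 to 5.56 in FFPE. It fell by 2.31 ± 0.18 (limma, adjusted p = 2.7e-05). Slc10a2, the sodium-dependent bile acid transporter of bile duct and gut epithelium, read 8.70 and 6.67 in FF and 6.42 and 4.20 in FFPE (-2.13 ± 0.15, adjusted p = 2.0e-05). For Cyp7a1 both cold arrays lay below both warm arrays, and for Slc10a2 this held only within each preservation. At 0 h Slc10a2 read 7.91 and 5.23, between the other times in both. Of the 22 tested genes of the bile acid list, 3 fell and 0 rose, the others being Hsd3b7 (-0.61 ± 0.17, adjusted p = 0.0411) and Cyp27a1 (-0.55 ± 0.14, adjusted p = 0.0283), both steps of bile acid synthesis. Slc10a2 is not on that list. The list's 13.6% lay near the 10.3% called of all genes, its median was -0.18, and 1 gene was left as lower without either warm array or without the cold FFPE array, where 1 rose as well.

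A regulator and a receptor gene were high at 3 h and low at 18 h. Bcl6, a transcriptional repressor that acts on fat and growth hormone target genes in liver, read 7.41, 8.59 and 6.55 in FF and 6.46, 8.19 and 5.21 in FFPE. From warm to cold it fell by 2.51 ± 0.19 (limma, adjusted p = 2.7e-05). Tfrc, the transferrin receptor gene, read 7.48, 8.59 and 7.15 in FF and 6.57, 7.87 and 6.32 in FFPE. It fell by 1.49 ± 0.14 (adjusted p = 0.00012). In both genes the 3 h array was the highest of the 3 times in each preservation, and 18 h lay below 0 h. Both belong to a list of glucocorticoid and fasting response genes, of which 4 of 17 fell and 0 rose (23.5% called, against 10.3% of all genes), with Igfbp1, an insulin-regulated binding protein gene (-0.94 ± 0.14, adjusted p = 0.0023), and Tsc22d3, a glucocorticoid-induced gene (-0.48 ± 0.14, adjusted p = 0.0463). The list median was -0.17.

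Enzyme genes made up much of the rest of the 15 largest decreases. Fmo2, a flavin monooxygenase gene, went from 7.20 warm to 5.33 cold in FF and from 8.55 to 6.81 in FFPE. It fell by 1.81 ± 0.14 (limma, adjusted p = 2.7e-05). Apom, an apolipoprotein of high-density lipoproteins, read 10.29 and 8.74 in FF and 10.49 and 8.54 in FFPE. It fell by 1.75 ± 0.15 (adjusted p = 8.6e-05). Apom also fell below its 0 h levels of 10.77 and 11, with 3 h between the other times. The remaining falls were in Dio1, which activates thyroid hormone (-1.70 ± 0.18), Nnmt, which methylates nicotinamide (-1.64 ± 0.18), the aminopeptidase gene Dnpep (-1.52 ± 0.14), Ufc1, the conjugating enzyme of the ubiquitin-like protein UFM1 (-1.51 ± 0.19), and Tm2d1, a membrane protein gene (-1.47 ± 0.29). Tm2d1 rested mostly on FF, at -2.25 against -0.69 in FFPE, and was not called without the warm FF array. Rnase2a, one of a family of near-identical ribonuclease genes and so uncertain as to member, read 7.95 and 5.22 in FF and 5.87 and 3.78 in FFPE (-2.41 ± 0.17, adjusted p = 2.2e-05). Of the 15 largest decreases, 12 had both cold arrays below both warm arrays. The same holds, in either direction, for 1964 of all genes tested (15%), of which 588 were called. The 15 decreases were picked for size in these same arrays, so their count is a description only.

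The largest increases were of another kind, with matrix, endothelial and regulatory genes in front. Colec11, a secreted lectin made by stellate cells, went from 4.32 warm to 6.63 cold in FF and from 4.91 to 5.85 in FFPE. It rose by 1.63 ± 0.24 (limma, adjusted p = 0.00209), a 3.08-fold difference carried more by FF. Tgfbi, a matrix protein gene induced by TGF-beta, read 7.04 and 8.69 in FF and 5.75 and 7.29 in FFPE, a rise of 1.60 ± 0.14 (adjusted p = 0.00012). Neat1, the nuclear long noncoding RNA that builds paraspeckles, read 8.24 and 9.80 in FF and 8.12 and 9.68 in FFPE (1.56 ± 0.15, adjusted p = 0.00014). In all 3 genes both cold arrays lay above both warm arrays, and each 0 h array lay between the warm and the cold array of its preservation. Onecut1, a hepatocyte transcription factor gene (1.44 ± 0.18), and Txnip, a glucose-responsive inhibitor of thioredoxin (1.38 ± 0.19), rose as well, but their 0 h levels were 7.61 and 7.82 for Onecut1 and 8.59 and 8.23 for Txnip, at or near the 18 h level in FFPE.

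Vessel and matrix genes filled most of the other places among the 15. Bmp2, which sinusoidal endothelium makes to control hepatocyte hepcidin, rose by 1.35 ± 0.17 (limma, adjusted p = 0.00098), and Calcrl, an endothelial peptide receptor gene, by 1.30 ± 0.17. The matrix genes Sparc (1.24 ± 0.18), Bgn (1.23 ± 0.19) and Postn (1.26 ± 0.25), and Sulf2, which trims heparan sulfate (1.28 ± 0.20), rose by similar amounts. Postn moved by 1.96 in FF and 0.56 in FFPE and was not called without either FF array. Sulf2 moved by 0.84 and 1.72 and was not called without the warm FFPE array. Jchain, the joining chain gene of plasma cells, rose by 1.26 ± 0.22 but was not called without either warm array. The others were Dpysl2, a cytoskeletal regulator gene (1.44 ± 0.14), Nlrc5, which drives class I antigen presentation genes (1.25 ± 0.17), and Gm4274 (1.23 ± 0.16). Of the 15 largest increases, 10 had both cold arrays above both warm arrays. Among all genes tested, 15% showed no overlap between warm and cold arrays, in either direction. The 15 were picked for size in these same arrays, so their count is a description only.

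**Figure D2:**
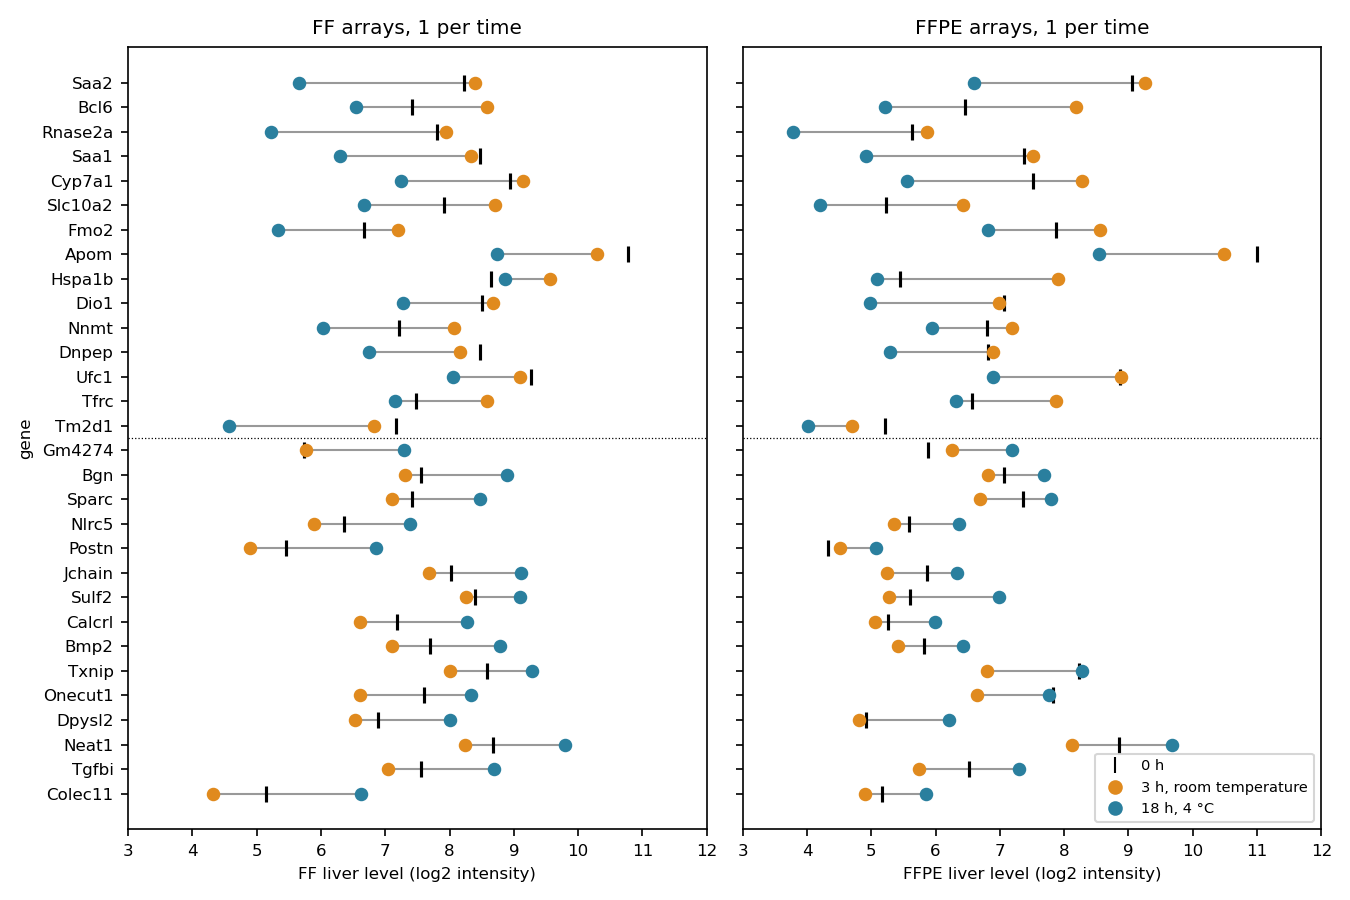
Log2 level of the 15 largest decreases (top) and 15 largest increases (bottom) in FF liver (left) and FFPE liver (right), 1 array per point: orange 3 h at room temperature, blue 18 h at 4 °C, black tick 0 h. Bcl6 and Tfrc are highest at 3 h, and the 0 h tick of Saa2 lies beside its 3 h point.

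Each gene was read by 1 probe set, and its other probe sets gave a check on the direction of the calls. Of 624 further probe sets of 426 genes called lower, 490 (78.5%) were lower too, and of 350 further probe sets of 181 genes called higher, 282 (80.6%) were higher. The further probe sets moved less than the chosen ones. Their median difference was -0.28 against -0.72 for genes called lower, and 0.30 against 0.695 for genes called higher. The sizes of the called differences thus did not carry over to them. For genes that did not pass, 59.7% of 6707 further probe sets had the sign of the chosen one. When each of the 45037 probe sets was its own unit in the limma fit, 2156 (4.79%) passed with the same sign rule, 804 higher (1.79%) and 1352 lower (3%). Of the 28898 that the annotation lists with 1 gene 1570 (5.43%) passed. The 16139 listed with several genes or none leaned the other way, with 586 (3.63%) past the test, 354 higher and 232 lower.

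Heat shock and chaperone genes, which fold proteins and are switched on by the factor HSF1 in stressed or warm cells, were lower at 18 h cold. Of 15 tested list genes 9 fell and 0 rose (60% called, against 10.3% of all genes), with a list median of -0.77 where all genes had -0.03. The genes of the list named by size are Hspa1b, the inducible HSP70 (-1.75 ± 0.34, limma adjusted p = 0.00803), Hspb1, a small heat shock protein (-1.36 ± 0.15, adjusted p = 0.0005), Chordc1, an HSP90 co-chaperone (-1.17 ± 0.14, adjusted p = 0.00082), and Hsp90aa1, the inducible HSP90 (-1.10 ± 0.22, adjusted p = 0.00964). Hspa1b read 8.64, 9.56 and 8.87 in FF, and 5.44, 7.90 and 5.09 in FFPE. The difference was therefore far larger in FFPE (-2.81) than in FF (-0.69), and it was not called without either FFPE array of the comparison. Hspb1 read 8.54, 8.93 and 7.82 in FF and 6.05, 6.82 and 5.21 in FFPE, so that 3 h was the highest and 18 h the lowest in both. Of the 15 genes, 7 (46.7%) had their highest level at 3 h in both preservations, against 11.6% of all genes, and 11 their lowest at 18 h. Hspa8, the constitutive HSP70 gene, named here after its values were seen, was at 11.45 and 11.51 in FF and 12.17 and 12.05 in FFPE (-0.03 ± 0.14, adjusted p = 0.939). The count of 9 was 3 without the warm FFPE array, 6 without the cold FFPE array and 5 without the warm FF array, with 0 higher each time. Hspa1b has a near-identical copy, Hspa1a, and probe sets may read both.

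HSF1 binds inverted repeats of GAA, and the promoters of list genes show how these are laid out. A run of 3 alternating units (GAANNTTCNNGAA or TTCNNGAANNTTC, either strand) and the shorter run of 2 (GAANNTTC or TTCNNGAA, contained in the former) were searched from 250 bases before to 30 bases after each start site. Sequences are RefSeq's, build GRCm38.p6. The 3-unit run was in 3 of the 8 fallen list genes that have a window (Hspe1, Hsph1 and Chordc1), and the 2-unit run in 5. Among 5 list genes that did not pass, the counts were 0 and 2. Over all 32851 windows the shares were 0.563% and 14.2%, and over all 817 fallen genes with a window 5 (0.612%) held 3 units, against 0.553% of the 10487 tested genes with one. The following windows, 5' to 3' on the gene's strand, are those of the 3 genes with 3 units and of Hspa1b with 2. Capitals mark the 3-unit runs, and in Hspa1b the 2-unit run; any 2-unit run elsewhere in the first 3 windows, as in Hsph1, stays in lower case.
Chordc1 (chr9:18292017-18292296, plus strand): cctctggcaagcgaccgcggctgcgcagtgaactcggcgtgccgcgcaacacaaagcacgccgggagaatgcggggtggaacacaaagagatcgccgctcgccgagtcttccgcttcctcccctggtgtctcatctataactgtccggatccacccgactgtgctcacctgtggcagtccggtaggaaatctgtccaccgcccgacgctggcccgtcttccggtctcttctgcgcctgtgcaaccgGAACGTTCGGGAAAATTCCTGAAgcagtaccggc
Hspe1 (chr1:55087898-55088177, plus strand): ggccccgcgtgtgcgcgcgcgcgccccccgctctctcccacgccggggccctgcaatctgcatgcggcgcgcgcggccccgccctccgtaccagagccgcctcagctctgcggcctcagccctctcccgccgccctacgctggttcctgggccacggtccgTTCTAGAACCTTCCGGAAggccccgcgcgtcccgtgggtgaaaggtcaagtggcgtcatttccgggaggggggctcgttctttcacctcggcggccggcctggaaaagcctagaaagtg
Hsph1 (chr5:149636286-149636565, minus strand): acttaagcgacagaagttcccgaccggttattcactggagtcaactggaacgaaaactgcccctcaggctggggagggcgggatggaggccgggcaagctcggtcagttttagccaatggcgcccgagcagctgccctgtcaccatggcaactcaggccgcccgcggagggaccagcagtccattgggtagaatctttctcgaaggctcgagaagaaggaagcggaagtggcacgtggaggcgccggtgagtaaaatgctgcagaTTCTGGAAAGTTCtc
Hspa1b (chr17:34959209-34959488, minus strand): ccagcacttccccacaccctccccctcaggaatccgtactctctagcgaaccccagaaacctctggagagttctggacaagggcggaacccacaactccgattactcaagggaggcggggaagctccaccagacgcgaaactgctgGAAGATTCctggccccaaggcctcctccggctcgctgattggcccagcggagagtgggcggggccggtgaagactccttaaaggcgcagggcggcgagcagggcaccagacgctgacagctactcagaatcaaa
A match is only a description of the letters. Hspe1, which encodes the mitochondrial co-chaperonin HSP10, went from 10.60 warm to 9.88 cold in FF and from 11.08 to 9.96 in FFPE (-0.92 ± 0.15, limma adjusted p = 0.00293). Hsph1, an HSP70 exchange factor gene, read 9.22 and 8.59 in FF and 9.38 and 8.33 in FFPE (-0.84 ± 0.17, adjusted p = 0.00859). Both are named here for their promoter windows, after their values were seen. Chordc1 read 8.0, 8.61 and 7.56 in FF and 8.03, 8.78 and 7.49 in FFPE, with the same order of times in both.

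The chaperonin CCT, which folds actin and tubulin, and its partner prefoldin had 3 of 13 tested subunits lower and 0 higher (23.1% called, against 10.3% of all genes), with a median of -0.26. The 3 were Cct5 (-1.09 ± 0.19, limma adjusted p = 0.0043), Cct4 (-0.84 ± 0.18) and the prefoldin gene Vbp1 (-0.58 ± 0.16), and the count was 0 without the warm FFPE array.

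Cold did not go with a detectable rise in Rbm3 or Cirbp, the 2 cold-inducible genes tested. Rbm3, an RNA-binding protein gene that rises in cooled cells, went from 5.60 warm to 6.07 cold in FF and from 3.87 to 3.89 in FFPE. The FFPE levels of Rbm3 lay below the array medians of 4.80 and 4.85, where a rise may not be measurable. Its difference of 0.25 ± 0.16 did not pass (limma, adjusted p = 0.41). Cirbp, its relative, read 5.89 and 6.10 in FF and 5.69 and 5.55 in FFPE (0.04 ± 0.16, adjusted p = 0.94). Its 0 h levels of 7.09 and 7.01 lay above both later times. A p that misses the threshold does not show that these levels were equal.

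Markers of 3 non-hepatocyte cell types of the liver were higher at 18 h. Of 44 tested genes on the Kupffer cell, sinusoidal endothelial and stellate and matrix lists together, 32 rose and 0 fell, with a median of 0.82, against 2.76% of all genes higher and a median of -0.03. They make up 8.86% of the 361 higher genes. Because the lists were chosen with earlier results of these data known, these shares are a description only. Of 17 tested hepatocyte markers 0 rose and 0 fell, with a median of -0.04. These markers are very bright, 5 of the 17 lying within 1 log2 unit of the brightest probe set in all 4 arrays, and their median SE was 0.26 against 0.16 over all genes. The part of this brightness in their small differences was not tested. In these bulk samples, fewer or more cells of a type and less or more RNA per cell cannot be told apart, and which piece of liver each array came from is not given.

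Kupffer cells are the resident macrophages of the liver sinusoid. Of 12 tested markers 9 rose, and the mean level of the list was 7.15, 6.13 and 6.95 for FF, and for FFPE it was 6.39, 5.38 and 5.89. The order of the times was thus 0 h, 18 h, 3 h in both preservations, and 10 of the 12 markers had their lowest level at 3 h in both, against 9.33% of all genes. None of the 12 was highest at 18 h in both. Cd5l, a secreted macrophage protein gene, read 8.19, 7.18 and 8.27 in FF and 8.21, 6.31 and 7.46 in FFPE, a rise from 3 h to 18 h of 1.12 ± 0.22 (limma, adjusted p = 0.00842). Vsig4, a complement receptor gene, read 8.64, 7.14 and 8.29 in FF and 6.82, 4.50 and 5.42 in FFPE (1.04 ± 0.21, adjusted p = 0.00878). Fcna (0.86 ± 0.15), a ficolin gene, and C1qb (0.77 ± 0.20), a complement C1q chain gene, followed. Marco and Cd68 lay below the array median in all 4 arrays, and Marco, a scavenger receptor gene, did not pass (0.03). The count of 9 was 3 without the warm FFPE array, 2 without the cold FF array, 1 without the warm FF array and 2 with the 6 liver arrays alone.

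Sinusoidal endothelial cells line the liver's capillaries and scavenge waste from blood. Of 13 tested markers 10 rose and 0 fell, with a median of 0.88 (1.15 in FF, 0.76 in FFPE). The list mean was 7.05, 6.58 and 7.59 for FF, and for FFPE it was 6.48, 6.07 and 6.66, so that here 18 h lay above 0 h as well. Oit3 (1.18 ± 0.16, limma adjusted p = 0.00109), a secreted zona pellucida domain protein gene, the scavenger receptor gene Stab2 (1.18 ± 0.19, adjusted p = 0.00289) and the VEGF receptor gene Kdr (1.07 ± 0.14, adjusted p = 0.00125) followed Bmp2. Stab2 went from 6.72 warm to 8.31 cold in FF and from 5.56 to 6.32 in FFPE, and Kdr 7.41 and 8.63, and 6.99 and 7.91. For Kdr both cold arrays lay above both warm arrays, and for Stab2 this held only within each preservation. The count of 10 was 6 without the cold FF array and 5 without the warm FF array.

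Stellate cells store vitamin A and, with fibroblasts, make matrix. Of 19 tested genes 13 rose and 0 fell, with a median of 0.82 (1.15 in FF, 0.56 in FFPE). The list mean was 6.64, 6.56 and 7.60 for FF, and for FFPE it was 5.88, 5.82 and 6.33, so 0 h and 3 h lay together and 18 h apart. After Colec11, Sparc and Bgn came Igfbp3, a growth factor-binding protein gene, at 1.17 ± 0.30 (limma, adjusted p = 0.0288), which moved by 1.99 in FF and 0.35 in FFPE. The contractile genes Acta2 (-0.03) and Des (-0.13), which mark stellate cells and smooth muscle and are named after their values were seen, did not pass. The count of 13 was 7 without either warm array and 9 without the cold FF array.

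**Figure D3:**
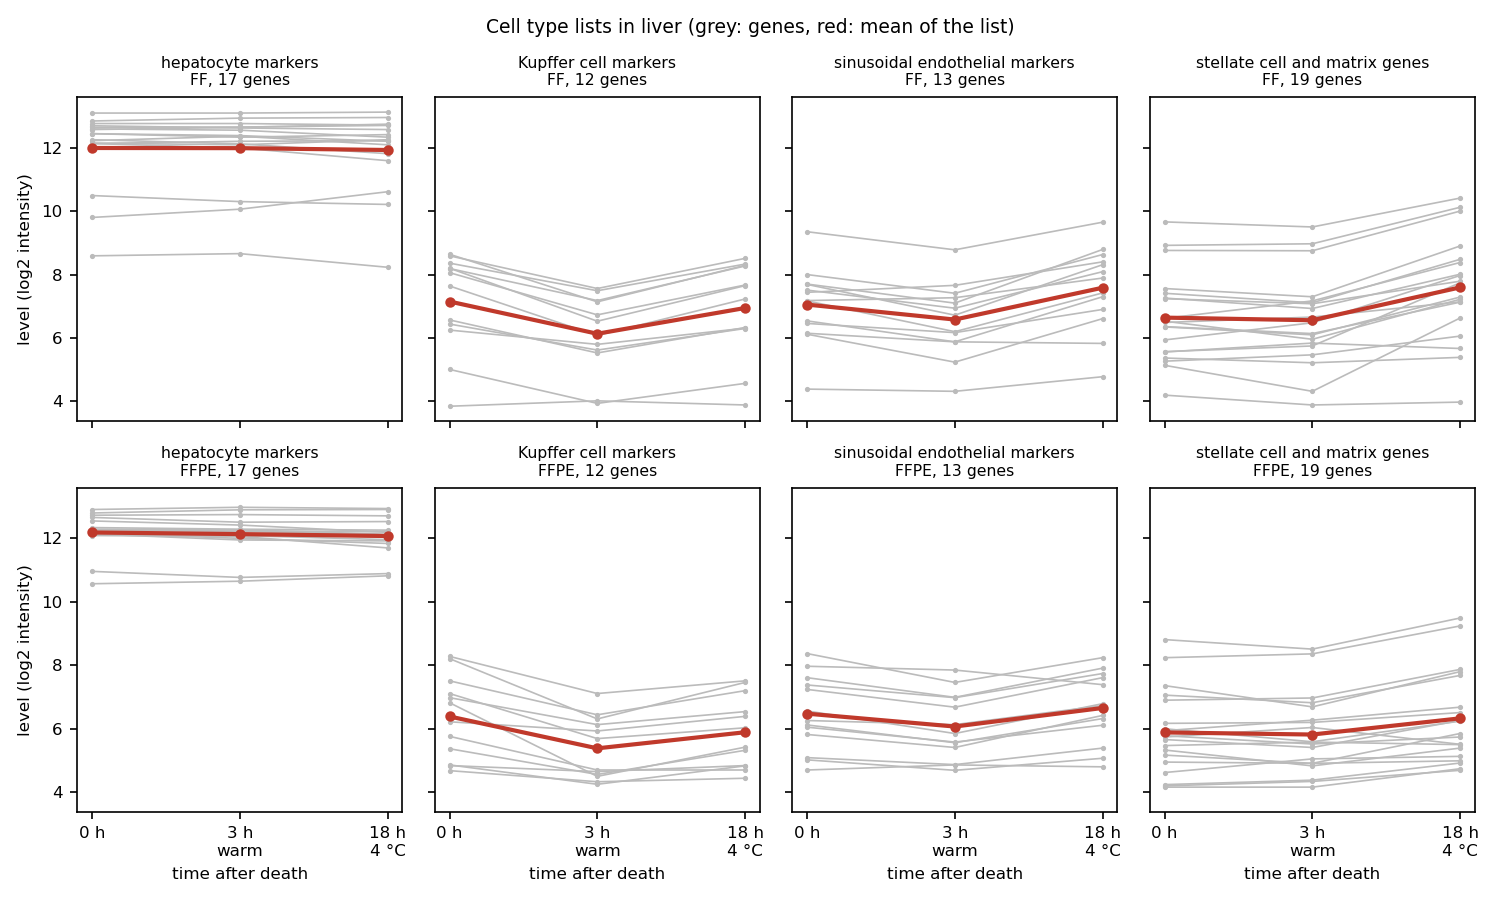
Log2 level of the tested genes of 4 cell type lists in liver at 0 h, 3 h (warm) and 18 h (4 °C), FF above and FFPE below; grey lines are genes, and the red line is the mean of the list, with 1 array per point. The hepatocyte mean runs from 11.98 to 11.93 in FF between 3 h and 18 h, the Kupffer mean dips at 3 h, and the matrix mean is highest at 18 h.

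Other cell types showed less. Of 6 tested bile duct markers 1 rose (16.7% called, against 10.3% of all genes), and the median was 0.12. It was the epithelial cadherin gene Cdh1 (0.87 ± 0.19, limma adjusted p = 0.0138), which hepatocytes also make. Cdh1 was not called without the cold FFPE array or the warm FF array. Of 4 erythroid, 8 neutrophil and monocyte and 8 lymphocyte genes none passed, with medians of -0.36, -0.04 and 0.15. Hba-a1, an alpha-globin gene with near-identical copies, went from 12.41 warm to 12.25 cold in FF and from 11.43 to 10.93 in FFPE (-0.33 ± 0.20, adjusted p = 0.344). Of 4 pancreas acinar genes 1 fell (25% called), Cela1 (-1.14 ± 0.16, adjusted p = 0.00137), an elastase gene. Cela3b, Cpa1 and Ctrb1 did not pass (-0.18, 0.06 and -0.09).

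Long noncoding RNAs that stay in the nucleus were among the risers. Of 12 tested long noncoding RNA genes 4 rose and 0 fell (33.3% called, against 10.3% of all genes), with a median of 0.23. Besides Neat1 they were Kcnq1ot1 (0.75 ± 0.16, limma adjusted p = 0.0116), an imprinting transcript, Meg3 (0.60 ± 0.16, adjusted p = 0.0304), an imprinted gene, and Malat1 (0.59 ± 0.15, adjusted p = 0.0307), which lies in nuclear speckles. Malat1 read 6.83 and 7.60 in FF but 12.07 and 12.48 in FFPE, a gap between preservations far wider than that between times. The count was 1 without either FF array of the comparison and 2 without the warm FFPE array.

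Genes of chromatin enzymes rose as well. Of 30 tested histone lysine methyltransferase and chromatin remodelling genes 7 rose and 0 fell (23.3%, against 2.76% higher of all genes), with a median of 0.37. Kmt2d, a histone H3 lysine 4 methyltransferase gene, read 6.72 and 7.76 in FF and 6.59 and 7.69 in FFPE, a rise of 1.07 ± 0.18 (limma, adjusted p = 0.00357). Bptf, a remodelling factor subunit, rose by 0.99 ± 0.22 (1.56 in FF, 0.41 in FFPE), Setd1b, of the same methyltransferase group, by 0.92 ± 0.19 (1.38 and 0.45) and the remodeller gene Chd7 by 0.89 ± 0.19 (1.29 and 0.49). Kmt2d thus moved equally in both preservations and the other 3 mostly in FF. The count was 1 without the warm FF array, 2 without the cold one and 3 without the warm FFPE array, but 12 higher and 1 lower without the cold FFPE array. The RNA polymerase II and Mediator list was mixed, with 2 of 36 higher and 4 lower (16.7% called, against 10.3% of all genes). Polr2a, the largest polymerase subunit, rose by 1.15 ± 0.24 (adjusted p = 0.0108), while Med21 (-0.75 ± 0.14), Med19 (-0.71 ± 0.16) and the higher Med14 (0.72 ± 0.18) are Mediator subunits. Of 38 splicing genes 5 fell and 1 rose (15.8% called), the core protein gene Snrpb (-0.85 ± 0.15) being the largest. After quantile normalization, however, 3 were higher and 2 lower. Without either warm array at most 1 call was left in each of these lists.

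On the lists of protein-making, protein-clearing and energy machinery, genes fell more often than among all genes tested. The ribosomal, translation factor, proteasome, respiratory chain and mitochondrial import lists, 6 in all, had 84 of 298 tested genes lower and 0 higher (28.2%, against 7.58% lower of all genes), which is 8.48% of the 991 lower genes. Because the lists were chosen with earlier results of these data known, these shares are a description only. The counts also depended on single arrays, as given with each list. Mitochondrial ribosomal proteins, which build the ribosome inside mitochondria, had 32 of 70 tested genes lower and 0 higher (45.7%), with a median of -0.53 (-0.41 in FF, -0.60 in FFPE). Mrps6 went from 7.05 warm to 5.86 cold in FF and from 7.14 to 5.66 in FFPE. It fell by 1.34 ± 0.14 (limma, adjusted p = 0.00029). Mrpl15 (-1.31 ± 0.18), Mrps16 (-1.17 ± 0.18) and Mrpl20 (-1.17 ± 0.23) followed, and 54 of the 70 genes (77.1%) were lowest at 18 h in both preservations, against 24.3% of all genes. The count was 7 without the warm FFPE array, 20 without the cold FFPE array and 17 without the warm FF array. Cytosolic ribosomal proteins moved less, with 8 of 65 lower (12.3%) and a median of -0.18, -0.06 in FF and -0.29 in FFPE. Rps10 (-0.94 ± 0.19), Rpl9 (-0.89 ± 0.17) and Rps19 (-0.89 ± 0.21) led them, and the count was 0 without either FFPE array of the comparison, 3 without the warm FF array and 18 without the cold FF array.

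The proteasome, which breaks down tagged proteins, had 13 of 37 tested subunits lower and 0 higher (35.1% called, against 10.3% of all genes), with a median of -0.47. Psma5 read 8.92 and 7.94 in FF and 8.50 and 7.56 in FFPE (-0.96 ± 0.13, limma adjusted p = 0.00152), and Psmb7, Psma6 and Psmd13 fell by 0.96, 0.92 and 0.92. The fall in Psma5 was the same in both preservations. The count was 3 without the warm FFPE array, 7 without the warm FF array and 21 without the cold FF array. Nuclear-encoded respiratory chain subunits had 16 of 69 lower and 0 higher (23.2% called), with a median of -0.29. Ndufa7 (-0.97 ± 0.20) and Ndufs1 (-0.85 ± 0.16) of complex I led, then Atp5g2 (-0.82 ± 0.19) and Atp5b (-0.76 ± 0.15) of the ATP synthase. Their count depended on single arrays, at 0 without the warm FFPE array, 3 without the cold FFPE array, 2 without the warm FF array, 25 without the cold FF array and 6 after quantile normalization. Mitochondrial import and citric acid cycle genes had 8 of 26 lower (30.8% called), led by Tomm20, an import receptor (-0.95 ± 0.23). Their count was 1 without the warm FFPE array and 3 without the warm FF array.

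Entry into and folding in the endoplasmic reticulum (ER) gave the same direction. Of 31 translocation, signal peptidase and glycosylation genes 9 fell and 0 rose (29% called, against 10.3% of all genes), with a median of -0.33. Spcs1, a signal peptidase subunit, read 9.97, 9.33 and 7.76 in FF and 9.03, 8.31 and 7.23 in FFPE. From warm to cold it fell by 1.33 ± 0.15 (limma, adjusted p = 0.00056). Of 27 folding and stress genes 7 fell (25.9% called), with Sdf2l1 (-1.22 ± 0.19) and Creld2 (-1.21 ± 0.16), both induced by unfolded protein stress, in front. The counts were 2 and 1 without the warm FFPE array, 2 and 3 without the warm FF array, and 4 and 4 without the cold FFPE array. The COMMD proteins sort membrane cargo in endosomes. With their retriever partners they had 5 of 15 lower and 0 higher (33.3% called), with a median of -0.35. Commd6 read 8.25 and 6.88 in FF and 6.65 and 5.22 in FFPE (-1.40 ± 0.15, adjusted p = 0.00031), and Commd3 (-1.37 ± 0.16) and Commd2 (-1.26 ± 0.15) fell alike. This count was 3 to 5 without any single liver array. Translation initiation and elongation factors had 7 of 31 lower (22.6% called), with Eif1ax (-1.04 ± 0.18) and Eif6 (-0.99 ± 0.15) in front. For them 1 was left without the warm FFPE array and 3 without the warm FF array. After quantile normalization the lower counts were 4 for cytosolic ribosomal, ER translocation and translation factor genes and 3 for ER folding genes.

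**Figure D4:**
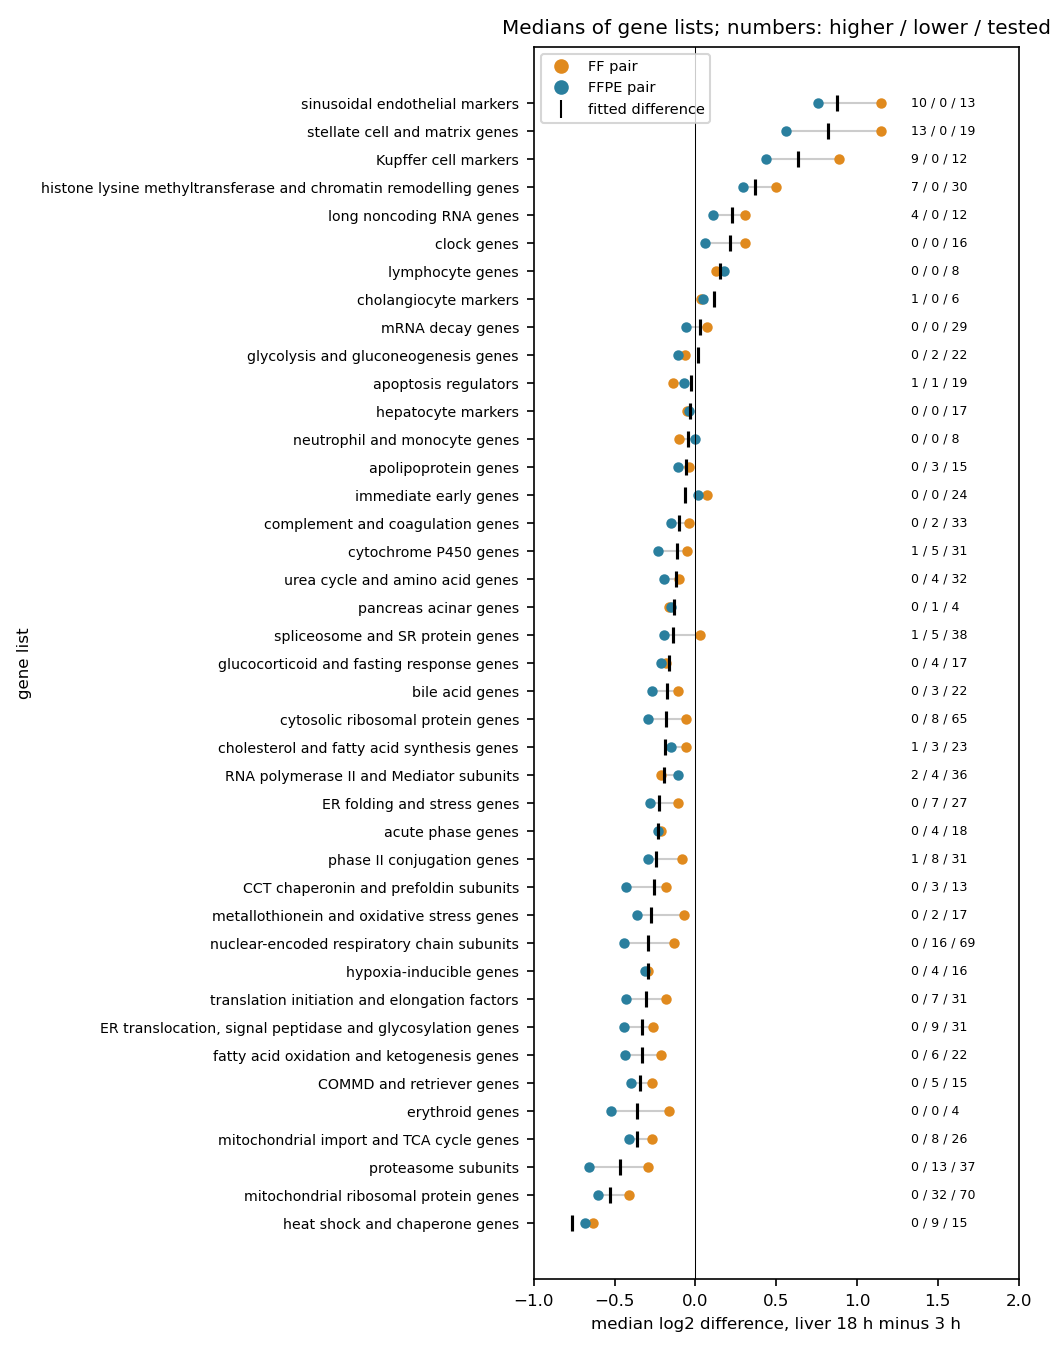
Median log2 difference between 18 h and 3 h in liver for each gene list, in the FF pair (orange), the FFPE pair (blue) and the fit over both (black tick). Printed numbers give the genes higher, lower and tested; the 3 non-hepatocyte cell type lists lie at the top and the heat shock, mitochondrial ribosomal protein and proteasome lists at the bottom.

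Some metabolic lists fell as well. Of 31 tested phase II conjugation genes 8 fell and 1 rose (29% called, against 10.3% of all genes), with a median of -0.25. Besides Nnmt they included the sulfotransferase gene Sult1b1 (-1.40 ± 0.23) and the glutathione transferase genes Gstt3 (-1.18 ± 0.17) and Gstm6 (-1.12 ± 0.17), members of families whose paralogs probe sets may not separate. Gsta2, another glutathione transferase gene, was the 1 that rose (0.82 ± 0.16), and it read 10.14, 9.23 and 10.03 in FF and 9.90, 8.55 and 9.38 in FFPE. Scd1, a fatty acid desaturase gene, had the same course, at 10.54, 9.74 and 10.68 in FF and 10.89, 9.24 and 10.18 in FFPE (0.94 ± 0.19, limma adjusted p = 0.0101). In both genes 3 h was the lowest time in each preservation. Cytochrome P450 genes, the main drug and steroid oxidases, had 5 of 31 lower and 1 higher (19.4% called), with Cyp2c39 (-1.45 ± 0.14, adjusted p = 0.00018), of a family of close paralogs, lowest and Cyp4b1 (0.86 ± 0.20) the riser. Fatty acid oxidation and ketogenesis genes had 6 of 22 lower (27.3%), led by Hadhb, of the mitochondrial trifunctional protein (-0.94 ± 0.14, adjusted p = 0.00209). The phase II, P450 and fatty acid oxidation counts of lower genes were 3, 1 and 1 without the warm FFPE array, 3, 1 and 2 without the warm FF array, and 4, 3 and 3 without the cold FFPE array. After quantile normalization 2 fatty acid oxidation genes were left.

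The other metabolic and secretory lists had between 6.06% and 20% of their genes called, against 10.3% of all genes. Urea cycle and amino acid genes had 4 of 32 lower (12.5%), led by the citrin gene Slc25a13 (-0.79 ± 0.15), and 1 was left after quantile normalization. Cholesterol and fatty acid synthesis had 3 of 23 lower, led by the sterol oxidase gene Msmo1 (-0.80 ± 0.14), and 1 higher, Scd1 (17.4% called), but after quantile normalization 3 were higher and 1 lower. Glycolysis and gluconeogenesis had 2 of 22 lower, Tpi1 (-0.91 ± 0.16) and Pgk1 (-0.83 ± 0.14), 9.09% of the list, and complement and coagulation 2 of 33, C8g (-0.62 ± 0.17) and F13b (-0.57 ± 0.15), which is 6.06% and became 0 after quantile normalization. Apolipoproteins had 3 of 15 lower (20%), Apom, Apoc2 (-0.62 ± 0.16) and Apoa4 (-0.58 ± 0.15), of which 1 was left after quantile normalization, while the abundant Apoa1 and Apob, named after their values were seen, did not pass (0.03 and -0.27). None of the 5 lists kept more than 1 lower gene without the warm FFPE array, or more than 2 without the warm FF array.

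Stress lists other than heat shock and ER folding and stress gave at most 4 calls each. Hypoxia-inducible genes had 4 of 16 lower and 0 higher (25% called, against 10.3% of all genes), with Pfkfb3, which makes the activator of glycolysis (-1.32 ± 0.16, limma adjusted p = 0.00083), Pgk1, Egln3 (-0.67 ± 0.17) and P4ha2 (-0.48 ± 0.14), and 1 was left without the warm FFPE array and 2 without the warm FF array. Metallothionein and oxidative stress genes had 2 of 17 lower (11.8%, near the share of all genes), Prdx3 (-0.77 ± 0.15) and Txnrd1 (-0.56 ± 0.13), with 0 after quantile normalization or without the warm FFPE array and 5 without the cold FF array. Apoptosis regulators had 1 of 19 higher and 1 lower (10.5% called, near the share of all genes). The higher was the BH3-only gene Bcl2l11 (0.90 ± 0.17, adjusted p = 0.00623). The lower was Xiap (-0.53 ± 0.16), which was not called after quantile normalization. Of 24 immediate early genes, which respond within minutes to stimuli, none passed, with Egr1 at 0.57 ± 0.18, Fos at 0.23 and Jun at -0.29. Of 16 clock genes none passed, with Cry1 (-0.57), Per3 (0.44) and Arntl (0.30) as examples. Of 29 mRNA decay genes none passed either, with a median of 0.03 that turned to -0.01 when arrays were centred. The smallest adjusted p-values (limma) in these 3 lists were 0.0539 for Cry1, 0.0557 for the deadenylase scaffold gene Cnot1 and 0.0617 for Egr1, and in each list at least 1 gene was called when either 0 h array was left out.

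The same storage contrast in brain gave almost nothing. Of the 13073 genes 2 (0.0153%) were lower at 18 h and 0 higher, namely Prkcd, a protein kinase C gene (-1.52 ± 0.20, limma adjusted p = 0.0473), and Plekhg1 (-1.17 ± 0.16, adjusted p = 0.0473). In brain 452 genes had an unadjusted p under 0.05, where no change at all would give 654. The spread in that fit is shared with the liver arrays. With the 6 brain arrays alone, 759 genes had an unadjusted p under 0.05, and the adjusted count was 0. The adjusted count was also 0 without any 1 of the 4 brain arrays at 3 h and 18 h. The FF and FFPE differences had an r of 0.10 in brain, across genes.

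The change in liver differed from that in brain for 185 genes (1.42%), tested as the difference itself in the same fit. The liver change lay above the brain change for 57 and below it for 128, and 183 of the 185 were among the genes called in liver. After quantile normalization 120 genes passed, 58 above and 62 below, so the excess below did not hold there. The count was 9 without the cold FF brain array, 11 without the cold FFPE brain array, 30 without the warm FF liver array, 35 without the warm FFPE liver array and 779 without the cold FF liver array. Of the 30 genes named by size in liver, 25 passed, 13 of the decreases and 12 of the increases. The 5 that did not were Hspa1b (adjusted p = 0.235), Tm2d1 (0.164), Sulf2 (0.0777), Jchain (0.17) and Postn (0.122). The largest differences below brain were those of Saa2 (-2.67 ± 0.19, limma adjusted p = 6.5e-05), Rnase2a (-2.33 ± 0.25), Saa1 (-2.32 ± 0.22), Cyp7a1 (-2.28 ± 0.25) and Slc10a2 (-2.24 ± 0.21). For these 5 genes the brain levels lay between 3.16 and 4.18, below the array median in every brain array. The largest above brain were Colec11 (1.86 ± 0.34), Plekhg1 (1.83 ± 0.22), Tgfbi (1.80 ± 0.20), Onecut1 (1.78 ± 0.26) and Nlrc5 (1.74 ± 0.25). Of these 5, Colec11, Tgfbi and Nlrc5 lay below the array median in every brain array. Of the 185 genes 33 (17.8%) did so, against 5.35% of all genes tested. At such levels a change in brain may not be measurable.

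Some of these genes are bright in brain as well. Neat1 went from 8.25 warm to 8.12 cold in FF brain and from 8.04 to 8.18 in FFPE brain, a change of 0.01 ± 0.15, against 1.56 in liver (difference 1.56 ± 0.21, limma adjusted p = 0.00474). Dpysl2 read 11.39 to 11.79 in every brain array. Bcl6 in brain changed by -0.43 ± 0.19 and its difference between tissues was -2.08 ± 0.27 (adjusted p = 0.00474). Among the lists, 6 of 19 matrix, 4 of 13 endothelial and 3 of 15 COMMD genes passed for the tissue difference, against 1.42% of all genes. So did 4 of 37 proteasome, 4 of 70 mitochondrial ribosomal and 4 of 31 phase II genes. Of 15 heat shock and 12 Kupffer genes 0 did. On simulated data the tissue difference test recovered 0 of 200 genes changed 1.5-fold in liver and 142 of 200 changed 2-fold. The liver medians of these 2 lists were below 2-fold, so their 0 does not show that liver and brain were alike. The heat shock median was -0.14 in brain and -0.77 in liver.

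**Figure D5:**
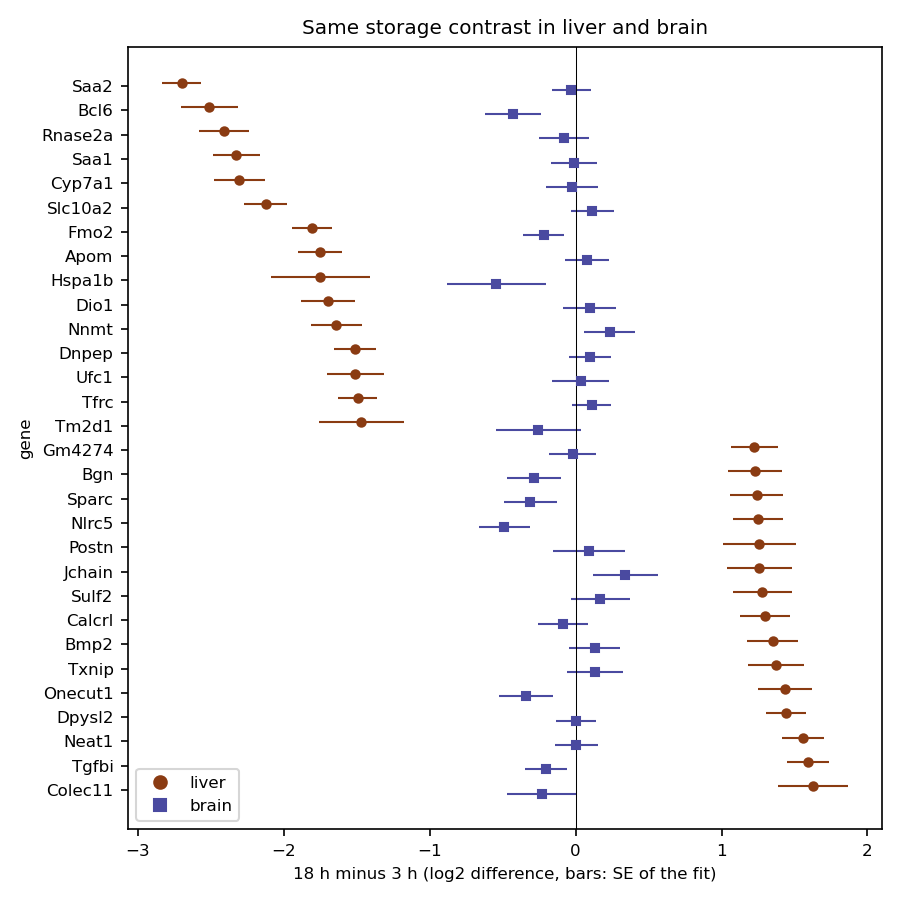
Fitted log2 difference between 18 h at 4 °C and 3 h at room temperature for the 30 largest liver differences, in liver (brown circles) and in brain (blue squares), with bars of 1 SE from the fit. Every brain value lies between -0.55 and 0.34 while the liver values reach from -2.70 to 1.63.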

How the data were processed

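RNA of 12 mouse tissue pieces was hybridised to Affymetrix MG-430 PM arrays, 1 array for each tissue, preservation and time. Per the submitters' processing notes the deposited log2 intensities came from RMA, run with Affymetrix Expression Console; whether all arrays went through 1 run is not given in the sources used here. Arrays have no read depth, and their number limits the precision. The annotation names 1 gene for 28898 probe sets, several for 551 and none for 15588; 28689 were matched to current symbols by gene ID. The brightest probe set stood for each of 17097 genes, and the 4024 below the array median in more than 9 arrays were left out. The limma 3.58.1 fit (R 4.3.3) held 8 coefficients (4 series means and, per tissue, a change for each later time) with 4 residual degrees of freedom, over all 12 arrays, tested two-sided. It was tested on simulated data. The text names the 15 largest changes in each direction, the 5 largest tissue differences in each direction and up to 4 called members of each of 42 lists, or up to 3 as values. Others are said to be outside this. Members and lists were chosen with earlier results of these data known. Alternatives were scaling, filter, probe set choice, arrays fitted and spread. Protein lengths were not analysed here.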

Additional observations from a re-analysis of the deposited data

Results flagged for a closer look

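The genes below changed differently in liver and in brain between 18 h and 3 h, by limma's test of the difference itself over all genes. All but Plekhg1, which was picked for its tissue difference, were picked for their size in liver, from the same arrays, so the sizes may be overstated. Of the 26 genes, 10 lay below the array median in every brain array (Saa1, Saa2, Rnase2a, Cyp7a1, Slc10a2, Dio1, Colec11, Tgfbi, Nlrc5 and Gm4274), where a change in brain may not be measurable. Values are the log2 change in liver minus that in brain. Among secreted and bile acid genes these were -2.67 for Saa2, -2.32 for Saa1, -1.83 for Apom, -2.28 for Cyp7a1 and -2.24 for Slc10a2. Among regulators and iron genes they were -2.08 for Bcl6 and -1.61 for Tfrc. For enzyme genes they were -1.59 for Fmo2, -1.80 for Dio1, -1.88 for Nnmt, -1.62 for Dnpep, -1.55 for Ufc1 and -2.33 for Rnase2a.

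In the other direction, matrix and vessel genes gave 1.86 for Colec11, 1.80 for Tgfbi, 1.55 for Sparc, 1.52 for Bgn, 1.22 for Bmp2 and 1.39 for Calcrl. The remaining genes gave 1.56 for Neat1, 1.44 for Dpysl2, 1.78 for Onecut1, 1.24 for Txnip, 1.74 for Nlrc5 and 1.25 for Gm4274. Plekhg1, at 1.83, is the 1 of them called in both tissues, in opposite directions, with 0.67 in liver and -1.17 in brain. Others had opposite signs too, such as Nlrc5 with 1.25 in liver and -0.49 in brain, but their brain change did not pass.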

How the results depend on the processing

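The liver count of 1352 became 2156 when each probe set was its own unit, 417 with the 6 liver arrays and 1 with the 4 arrays at 3 h and 18 h, and ran from 304 to 1673 with 1 array left out. The brain count of 2 became 1 with every probe set or without the 0 h arrays, 0 with the 6 brain arrays, arrays centred on the median, the mean of probe sets or no filter, and ran from 0 to 2 with 1 array left out. The tissue difference count of 185 became 120 after quantile normalization and ran from 9 to 779. For the FF pair, 360 genes became 224 after quantile normalization and 1616 at 1.5-fold, and for the FFPE pair 434 became 1821 at 1.5-fold. None of the 30 genes named by size changed sign in any setting. The lean of some splits turned: after centring, the FF pair had 173 higher and 187 lower in place of 188 and 172, and after quantile normalization 2 gene lists, splicing (3 higher, 2 lower) and cholesterol and fatty acid synthesis (3 and 1), turned towards increases. All 30 genes named by size kept their call under quantile normalization, centring, the mean of probe sets, no filter and both other estimates of the spread. With the 6 liver arrays Hspa1b, Tm2d1 and Postn lost it, and with the 4 arrays only Saa2 kept it. Of the 1352 calls, 939 were also made after quantile normalization, 946 with the mean of probe sets and 416 with the 6 liver arrays. Preservation is a term of the fit, so 18 h is already compared with 3 h within FF and within FFPE. Pairing by animal was not possible, because the labels do not say which pieces came from the same animal. A fit within FF or FFPE alone leaves no degrees of freedom, so those values stand without a test. The cause of these differences was not tested.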

Other observations

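No gene differed at least 2-fold in opposite directions in FF and FFPE, and 8 did at 1.5-fold. The 3 widest by their smaller side were Cops4, a COP9 signalosome subunit gene (-0.86 in FF, 0.89 in FFPE), Pnkd (0.95 and -0.75) and the zinc finger gene Zfp513 (0.72 and -2.70). Each value is the difference of a pair of single arrays. The widest gap between the pairs among called genes that appear in the text was that of Hspa1b, at 2.12.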
